A study of Mus musculus with 2 samples.

Results

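Wnt ligands, Frizzled receptors and the genes that carry their signal inside the cell were taken as 40 of the 21900 protein-coding genes of the RefSeq table of assembly GRCm38.p6. The 40 genes were chosen by symbol, by a rule that uses no measured value but was written with earlier results of these data known. They were 19 Wnt ligands, 10 Frizzled receptors and 11 inner pathway genes, namely Dvl1, Dvl2, Dvl3, Ctnnb1, Apc, Axin1, Axin2, Gsk3b, Tcf7l1, Tcf7l2 and Lef1. The study mapped N4-acetylcytidine, a cytidine that carries an acetyl group and is written ac4C, by acRIP-seq in polyA RNA of wild-type mouse uterus, taken whole at gestational day 4. In this assay the RNA fragments that an antibody to ac4C binds are sequenced. There was 1 immunoprecipitation library and 1 input library, both of the same genotype, tissue and day, with no treatment named, so no value below has a replicate check and no test between conditions was possible. The number of animals behind each library and their age were not given in the sources used here. A whole uterus holds epithelium, stroma, muscle, vessels and blood cells together, and fewer cells of a type and less RNA per cell cannot be told apart.

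Wnt ligands are secreted, lipid-modified glycoproteins. They bind Frizzled receptors, which span the membrane several times, and Dishevelled proteins (Dvl) relay the signal inside the cell. In the canonical branch this stops a complex of Axin, Apc and Gsk3b from marking β-catenin (Ctnnb1) for destruction, and β-catenin then joins the TCF and LEF factors (Tcf7l1, Tcf7l2, Lef1) on DNA. In the mouse uterus Wnt signalling is known for its part in gland formation, in epithelial and stromal differentiation and in the decidual change of the stroma at implantation.

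The comparison of immunoprecipitated with background signal was available as the authors' list of 21192 peaks, with a median fold enrichment at the summit of 5.58 and a median of 22 fragments there. The fold enrichment is the authors' value, a ratio of fragments at the summit to the background their peak caller assumed there, with a pseudocount of 1 added to both. Fragment numbers and backgrounds were recovered from the deposited fold enrichment and p-value. Each 95% interval is the exact Poisson interval of the fragment number and covers the counting error of that number only. The background was held fixed, so its own error is not in the interval. Intervals said below to lie apart or to overlap do so on that footing only. Peaks carry no strand, and exons could not be told from introns. Of 27 marker genes of uterine and other cell types 21 held a peak (77.8%), against 30.7% of all protein-coding genes. Peaks lay in 5 of 6 epithelial, 7 of 7 stromal, 5 of 5 smooth muscle and 3 of 3 endothelial genes. The epithelial marker Epcam, the leucocyte markers Ptprc and Adgre1 and the embryo markers Pou5f1, Nanog and Cdx2 held none, while the leucocyte marker Cd68 held a peak.

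Peaks lay in 26 of the 40 genes (65.0%), against 30.7% of all protein-coding genes. By place in the pathway they lay in 8 of 19 ligands (42.1%), in 7 of 10 receptors (70.0%) and in all 11 inner pathway genes. In total the 40 genes held 91 peaks, of which 23 lay in ligands, 10 in receptors and 58 in inner pathway genes. At least 3 peaks were found in 8 of 11 inner pathway genes and in 2 of 19 ligands, Wnt5a and Wnt11, but in 0 of 10 receptors, against 11.9% of all protein-coding genes. A fold enrichment of at least 10 at the highest peak was reached by 2 ligands, 5 receptors and 7 inner pathway genes, against 5.84% of all protein-coding genes. Transcript abundance was not measured apart from the peaks, and a transcript with few fragments can hold a site that does not enter the list.

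**Figure D1:**
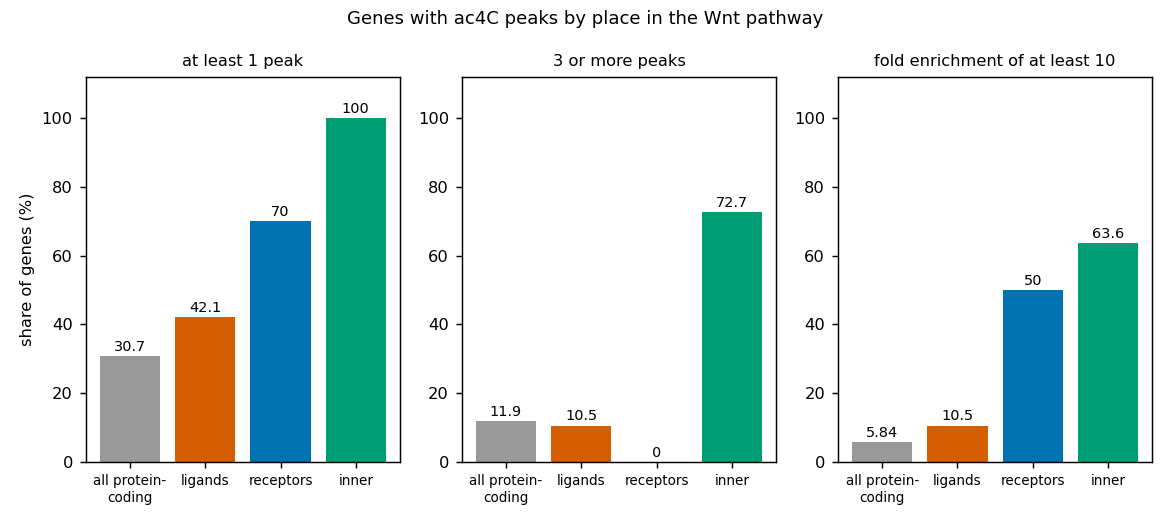
Share of genes (%) with at least 1 peak, with 3 or more peaks and with a fold enrichment of at least 10, for all 21900 protein-coding genes, 19 Wnt ligands, 10 Frizzled receptors and 11 inner pathway genes. Bars are shares of all genes of a group and carry no error, since there was 1 library of each kind; inner pathway genes stand highest in each panel, at 100, 72.7 and 63.6%.

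The groups also differed in what lay under their peaks. At the highest peak of each gene the median background was 0.788 fragments in ligands, 1.31 in receptors and 3.502 in inner pathway genes, against 2.10 over all protein-coding genes with a peak. The median gene span was 22.9 kb for ligands, 4.59 kb for receptors and 64.6 kb for inner pathway genes. Among genes with a span of at least 50 kb a peak lay in 6 of 6 inner pathway genes, against 44.4% of all protein-coding genes of that length, and between 20 and 50 kb it lay in 4 of 11 ligands, against 33.0%. The part of background and span in the counts above was not otherwise tested. The part of exon number in the counts of peaks was not tested either, since exons could not be told from introns. Median fold enrichment at the highest peak was 6.43 over the 8 ligands, 10.7 over the 7 receptors and 11.3 over the 11 inner pathway genes, against 6.61 over all protein-coding genes with a peak. The highest peak of a gene is the maximum over its peaks, so it tends to rise with their number. This holds for the counts of genes at 10 or more as well, and the part of peak number was not otherwise tested. With the median of each gene's peaks instead, the value was 5.63 for ligands, 8.71 for receptors and 5.69 for inner pathway genes. It was 5.48 for all protein-coding genes with a peak, and the inner pathway genes no longer stood above the receptors. Over single peaks the median was 5.43 in ligands, 7.4966 in receptors and 5.85 in inner pathway genes, against 5.56 in all protein-coding genes.

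**Figure D2:**
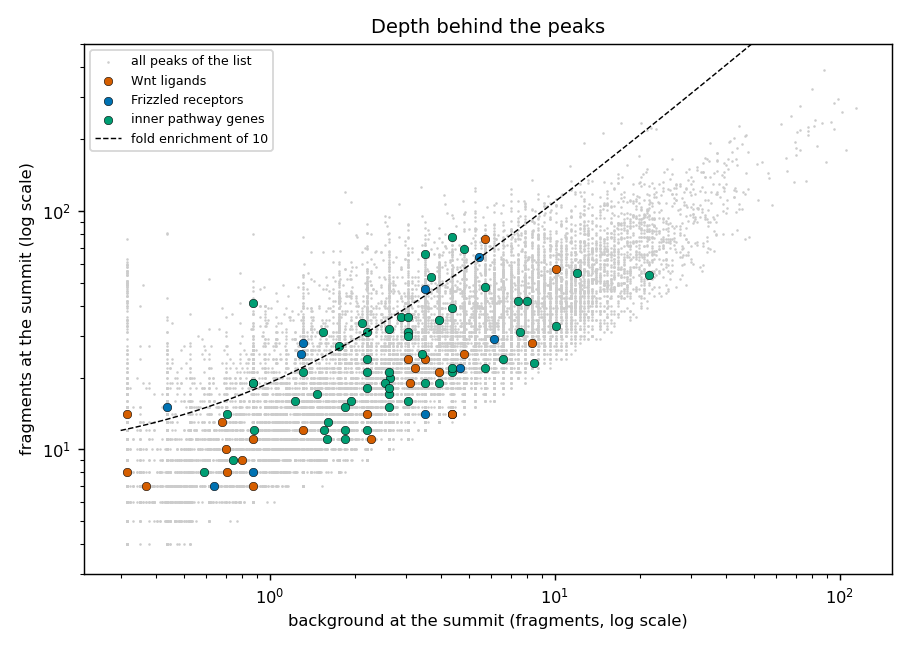
Fragments at the summit against background at the summit, both in fragments on log scales, for all 21192 peaks (grey) and the 91 peaks of the Wnt pathway genes (coloured by group). The dashed line marks a fold enrichment of 10; ligand peaks reach down to the lowest background of the list, 0.317, and peaks of inner pathway genes range from 0.587 to 21.4.

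Among the ligands, Wnt5a, a ligand best known for signalling without β-catenin, held the most peaks, 8 within a span of 22.9 kb on chromosome 14. Its highest peak, at chr14:28505718-28506086, had a fold enrichment of 11.5 (95% interval 9.10 to 14.4) on 76 fragments over a background of 5.69. The next was at 5.43 (3.49 to 8.09), and the remaining 6 ran from 5.24 down to 2.79. The interval of the highest peak thus lay above those of the other 7. A peak at chr14:28518095-28518534 had 57 fragments, but on a background of 10.1 its fold enrichment was only 5.24 (3.99 to 6.76). Peaks covered 16.3% of the Wnt5a span, the highest share among the ligands. The promoter table used for strand holds no entry for Wnt5a, so its peaks are given without a direction.

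Wnt6, a ligand made in the uterus and in many epithelia, held 2 peaks, both near the 3′ end of its span on chromosome 1. The higher, at chr1:74784094-74784669, stood at 11.4 (95% interval 6.57 to 18.6), level with Wnt5a, but on 14 fragments. The lower stood at 6.83 (3.38 to 12.7) on 8 fragments. Both rested on the lowest background of the whole list, 0.317 fragments, so their fold enrichment is set by few fragments and the interval of the higher peak took in that of Wnt5a whole.

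Wnt11, which like Wnt5a is best known for signalling without β-catenin, held 6 peaks along its 19.7 kb on chromosome 7. The highest, at chr7:98835093-98835344, stood at 8.32 (95% interval 4.71 to 13.8) on 13 fragments. The others were at 6.15, 5.62, 4.70, 4.45 and 2.79, and the intervals of all but the lowest overlapped that of the highest. A summit lay 131 bp after the upstream of its 2 annotated starts and another 61 bp after the downstream one. The summits of 2 of the 6 peaks also lay in the span of Gm33770, a gene that is not protein-coding, and the list does not tell the strands apart. Without them the highest value of Wnt11 was 6.15.

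The other 5 ligands with a peak held 1 or 2 peaks each, on 7 to 24 fragments. Wnt16 stood at 6.47 (95% interval 3.41 to 11.4) on 10 fragments, with its summit 583 bp after the annotated start. Wnt2b held 2 peaks, at 6.40 and 5.57, on 11 and 9 fragments. Wnt4, a stromal ligand needed for the decidual change, held 1 peak at chr4:137296135-137296513, at 5.85 (2.79 to 11.3) on 7 fragments. That peak lay 3184 bp before the end of the span, and its number of fragments, shared with Wnt9a and a weak peak of Fzd5, was the lowest among the 91 peaks. Wnt9a stood at 4.27 (2.03 to 8.22), 640 bp after its start. Wnt5b held 2 peaks, but the higher, at 5.55 and 1581 bp wide, also lay in the protein-coding gene Fbxl14, and the lower, at 5.27, lay in Gm30690, a gene that is not protein-coding. No peak of Wnt5b lay in Wnt5b alone.

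The 11 ligands without a peak were Wnt1, Wnt2, Wnt3, Wnt3a, Wnt7a, Wnt7b, Wnt8a, Wnt8b, Wnt9b, Wnt10a and Wnt10b. Among them is Wnt7a, a ligand of the uterine luminal epithelium. Since the list gives no background where there is no peak, enrichment in these genes was not detected and its absence was not shown. Wnt genes often lie side by side in the genome, and 4 such pairs lay within 50 kb of each other here. Wnt6 had 2 peaks and Wnt10a, 6696 bp away, had 0. Wnt9a had 1 peak and Wnt3a, 16097 bp away, had 0. The pairs Wnt1 with Wnt10b and Wnt3 with Wnt9b had 0 peaks each.

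**Figure D3:**
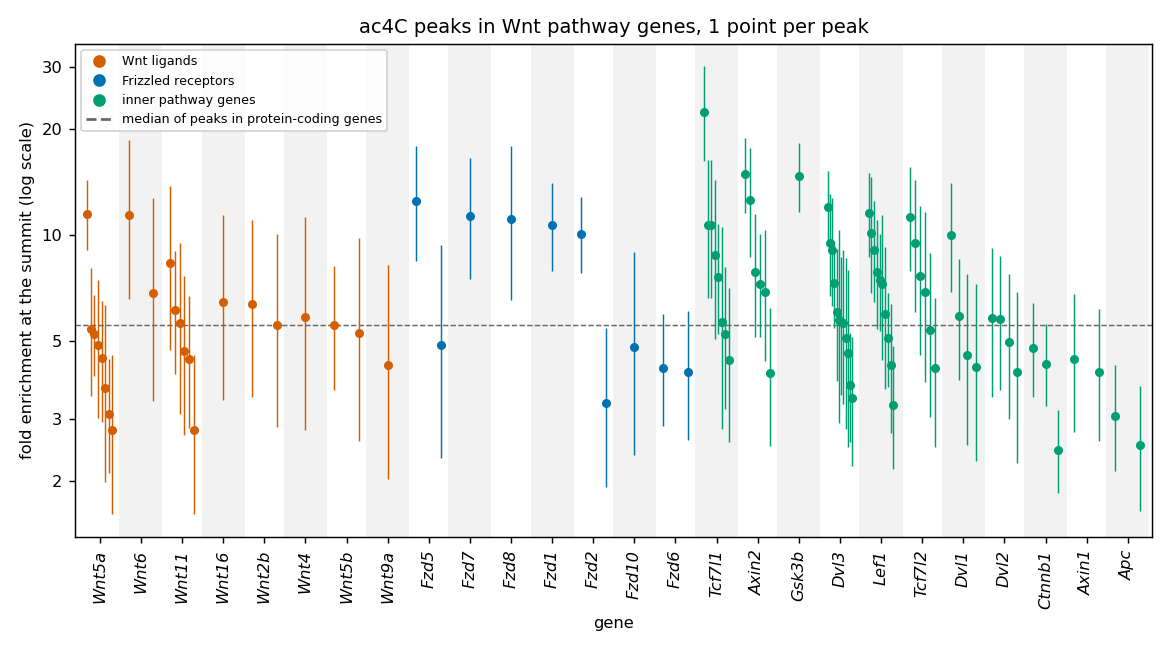
Fold enrichment at the summit (log scale) of each of the 91 peaks, by gene, ordered within each group by the highest peak. Points are peaks, bars are 95% Poisson intervals of the fragment number, and the dashed line is the median of peaks in protein-coding genes, 5.56; 14 genes have a peak of at least 10, and in most genes with several peaks the weaker ones reach down to that line or below it.

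The 7 Frizzled receptors with a peak held 1 or 2 peaks each. The highest peak of Fzd5, at chr1:64735036-64736925, stood at 12.5 (95% interval 8.48 to 17.9) on 28 fragments. Fzd7 stood at 11.4 (7.51 to 16.6) on 25 fragments and Fzd8 at 11.1 (6.53 to 17.9) on 15. Fzd1 stood at 10.7 (7.89 to 14.1) on 47 fragments, and Fzd2 at 10.1 (7.82 to 12.9) on 64. These 5 receptors lay within 10.1 to 12.5 and their intervals all overlapped, so no order among them could be read. Fzd10 stood lower, at 4.80 (2.37 to 8.94) on 8 fragments, and Fzd6 at 4.21 (2.86 to 5.98) on 29. The interval of Fzd6 lay below those of all 5, and that of Fzd10 overlapped them.

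The highest peaks of most receptors were wide. They measured 2493 bp in Fzd1, 2073 bp in Fzd2, 1890 bp in Fzd5, 1356 bp in Fzd7 and 772 bp in Fzd8. In 4 of 7 receptors with a peak the highest peak was wider than 1000 bp, as it was in 1 of 8 ligands and 3 of 11 inner pathway genes, against 8.19% of all protein-coding genes with a peak. The ligand was Wnt5b, and the summit of that peak also lay in Fbxl14. Fzd6 and Fzd10 had peaks of 204 to 331 bp. Most Frizzled genes are short and have their coding sequence in a single exon, while Fzd6 is spread over 32.0 kb. Peaks covered 62.0% of the Fzd2 span, 56.9% of Fzd1, 29.1% of Fzd5, 28.2% of Fzd7 and 23.1% of Fzd8, but 1.71% of Fzd6. Over all protein-coding genes with a peak and a span below 5 kb the median share was 24.5%, and their highest peak had a median width of 384.5 bp. Of the 6 receptors with such a span 5 held a peak, against 15.7% of all protein-coding genes of that length.

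**Figure D4:**
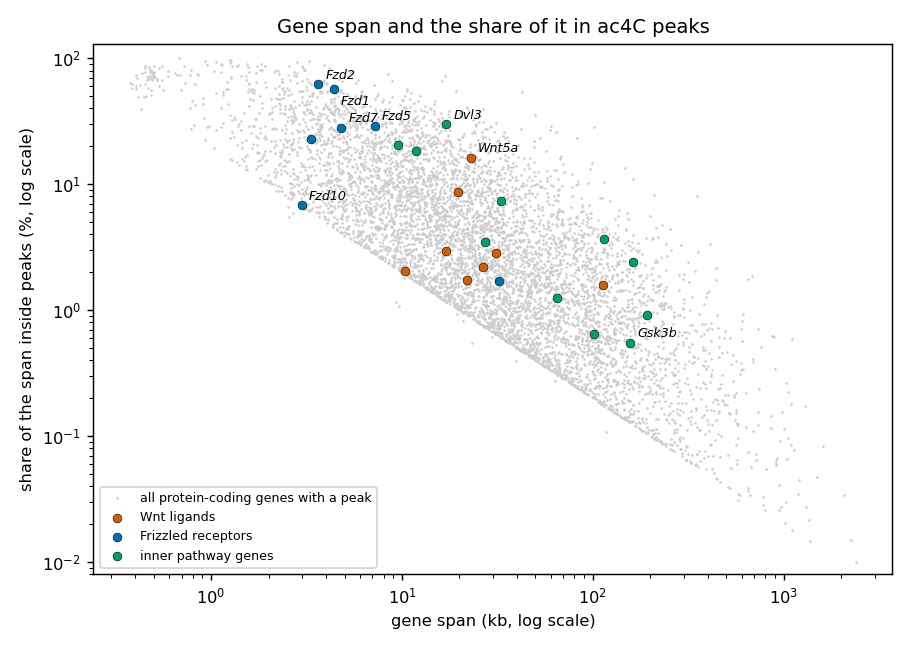
Share of the gene span inside peaks (%, log scale) against gene span (kb, log scale) for all protein-coding genes with a peak (grey) and the 26 Wnt pathway genes with a peak (coloured by group). Fzd1 and Fzd2 have 56.9 and 62.0% of their spans in peaks, Fzd10 has 6.83%, and the long gene Gsk3b has 0.550%.

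Where the start was known, the summits of the wide receptor peaks lay within the opening 26.5% of the span. The peak of Fzd1 had its summit 405 bp after the annotated start, and that of Fzd7 988 bp after it. In Fzd5 the summit of the wide peak lay 1903 bp after the start and that of a peak of 200 bp, at 4.88 (95% interval 2.33 to 9.41), 420 bp after it. Fzd2 had a further peak of 200 bp at 3.33 (1.92 to 5.44). The receptors with no peak were Fzd3, Fzd4 and Fzd9, with spans of 70.0, 5.75 and 2.11 kb, so a short span did not go with a peak in each case.

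The inner pathway genes include 3 transcription factors. Tcf7l1, which mostly acts as a repressor of Wnt target genes, had the highest fold enrichment of all 40 genes, 22.4 (95% interval 16.2 to 30.2), at chr6:72626482-72627945. That peak was 1464 bp wide, rested on 41 fragments over a background of 0.875 and had its summit 1396 bp before the 3′ end of a span of 162.7 kb. Its interval lay above those of 19 of the 25 other genes with a peak. Of the other 7 peaks of Tcf7l1, 2 had the same 19 fragments and the same fold enrichment of 10.7 (6.63 to 16.4). These 2 lay at opposite ends of the gene, one 768 bp after the start and the other 5763 bp before the end. The remaining 5 ran from 8.78 to 4.41. The spans of Gm15401 and Gm31391, which are not protein-coding, held the summits of 4 of the 8 peaks, none of them the highest.

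Lef1, a DNA-binding partner of β-catenin, held 10 peaks in 114.1 kb on chromosome 3. The highest, at chr3:131110359-131111966, stood at 11.5 (95% interval 8.70 to 15.0) on 53 fragments and was 1608 bp wide. A further peak stood at 10.2 (6.83 to 14.6) and the lowest at 3.30 (2.16 to 4.85). Lef1 thus held peaks of very unequal height, and they fell in 2 zones. From the annotated 5′ end, 3 summits lay in the opening 4.48% of the span and 7 between 65.1 and 98.9%, with none between.

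Tcf7l2, also a partner of β-catenin, held 6 peaks in 191.9 kb, the longest span of the 40 genes. The highest stood at 11.3 (95% interval 7.92 to 15.6) on 34 fragments, with its summit 1918 bp before the 3′ end. The next were at 9.51 and 7.64, and the lowest was at 4.18. The summit of the peak at 7.64, 832 bp after an annotated start, also lay in the span of Gm31734, a gene that is not protein-coding. Each of the 3 factors thus held 6 to 10 peaks, a highest peak above 11 and summits close to both ends of the span.

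The Dishevelled genes held 20 peaks in all. Dvl3 alone held 12, the most of the 40 genes, within 17.1 kb on chromosome 16, and 29.98% of its span lay in peaks. Its highest peak, at chr16:20530669-20531526, stood at 12.0 (95% interval 9.40 to 15.2) on 69 fragments. Next came 9.51 (6.74 to 13.1) and 9.10 (6.31 to 12.7), and the lowest was 3.44 (2.21 to 5.13). Summits were spread from 1.36 to 96.7% of the span, and the one nearest the start, 194 bp after it, also lay in Gm16618, a gene that is not protein-coding.

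Dvl1 and Dvl2 held 4 peaks each. In Dvl1 the highest stood at 10.04 (95% interval 6.92 to 14.1) on 31 fragments and the other 3 between 4.23 and 5.89. In Dvl2 the 4 peaks lay close together, from 4.08 to 5.81, on 12 to 20 fragments. The interval of the highest Dvl2 peak, 3.47 to 9.22, lay below that of Dvl3 and overlapped that of Dvl1. The summits of Dvl1 lay from 54.6% of the span onwards and those of Dvl2 from 47.5%.

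β-catenin and the genes of its destruction complex spread the most. Axin2, a scaffold of the complex that is itself a target gene of the pathway, held 6 peaks. Its highest, at chr11:108941691-108942665, stood at 14.9 (95% interval 11.6 to 18.9) on 66 fragments, followed by 12.6 (8.68 to 17.7) on 31. The other 4 ran from 7.84 to 4.05. All 6 summits lay in the last stretch of the span, from 74.1 to 98.5%.

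Gsk3b, the kinase that marks β-catenin, held a single peak in 157.1 kb, at chr16:38089453-38090316. It stood at 14.7 (95% interval 11.7 to 18.3) on 78 fragments, the most at any of the 91 summits, 868 bp after the annotated start. Axin2 and Gsk3b were therefore alike in height and opposite in number and place of peaks.

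Ctnnb1, Axin1 and Apc stood at the lower end. Ctnnb1 held 3 peaks, at 4.77 (95% interval 3.47 to 6.41), 4.31 (3.27 to 5.59) and 2.45 (1.85 to 3.18), on 42, 55 and 54 fragments. Its peaks were thus among the deeper of the 91, but their backgrounds ran from 8.01 to 21.4, the last of which was the highest of the 91. Axin1 held 2 peaks, at 4.44 (2.76 to 6.81) and 4.09 (2.60 to 6.16). Apc held 2 peaks on chromosome 18, at 3.07 (2.14 to 4.28) and 2.53 (1.64 to 3.74), on backgrounds of 10.1 and 8.49. The highest peak of Apc was the lowest of the 26 genes. Its interval, and those of Axin1 and Ctnnb1, lay below the intervals of Axin2 and Gsk3b.

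In order of the highest peak, each gene's interval overlapped that of the next gene down, from Tcf7l1 to Apc, so the intervals set no neighbours apart. Overlap alone does not show that a step lay within counting error, and single steps were not tested. At the ends the distance was larger, since the interval of Tcf7l1 lay wholly above that of Apc. Of the 91 peaks, 52 had a −log10 q below 10.

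The place of summits along the gene could be read where a promoter table from RefSeq (GRCm38.p6) gave the strand and start. It matched 30 of the 40 genes, 20 of them with a peak and 74 summits in all. Apc, Axin1, Fzd2, Fzd3, Fzd6, Fzd8, Wnt10a, Wnt5a, Wnt7b and Wnt8a had no entry. A summit within 1000 bp after an annotated start was found in 10 of the 20 genes, against 32.9% of all protein-coding genes with a peak and a known start. They were Wnt9a, Wnt11, Wnt16, Fzd1, Fzd5, Fzd7, Dvl3, Gsk3b, Tcf7l1 and Tcf7l2. In Dvl3 and Tcf7l2 the only such summit also lay in a gene that is not protein-coding. Fzd1, Fzd5 and Fzd7 have spans of 4.38, 7.19 and 4.81 kb, so 1000 bp is a larger part of them than of long genes. Of the 74 summits, 16 (21.6%) lay in the opening 10% of the span and 15 (20.3%) in the last 10%, against 11.2 and 25.1% of 16163 summits in all protein-coding genes with a known start. The opening 10% held 4 of 15 ligand summits, 2 of 5 receptor summits and 10 of 54 summits of inner pathway genes.

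**Figure D5:**
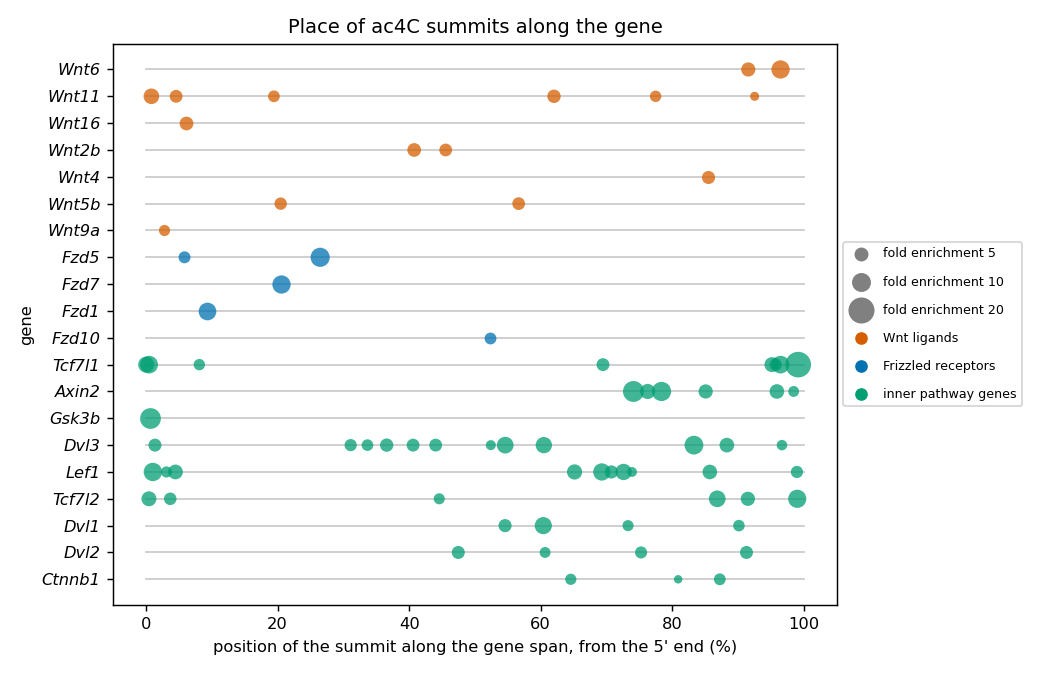
Position of each of the 74 summits along the gene span, in percent from the 5′ end, for the 20 genes with a peak and a known strand. Each grey line is a gene, each point a summit, coloured by group and with an area that scales with fold enrichment; Axin2 has all its summits beyond 74.1%, Gsk3b has its only summit at 0.553%, and Tcf7l1, Tcf7l2 and Lef1 have summits near both ends.

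In 3 genes a peak covered bases among the opening 50 of an annotated transcript. It covered all 50 in Tcf7l1 and at both starts of Wnt11, and the last 14 of them at 1 of the 4 starts of Lef1. Bases 21 to 50 of these transcripts are given, a stretch that includes the 14 bases of Lef1 inside a peak. Sequences are from RefSeq, GRCm38.p6, 5′ to 3′ on the transcript strand, and capitals mark the bases that lie inside a peak.
Tcf7l1, chr6:72788996-72789025, minus strand: AGGGAGGGGCGCCGGGCCGGGCCAGGCAGG
Wnt11, chr7:98835132-98835161, plus strand: AGAGCTCCGGAGATCCGCGGGCGCAGGCCG
Wnt11, chr7:98838865-98838894, plus strand: GGCGGGTCTCGGGCGGTTCGGGGAGAGAGC
Lef1, chr3:131110343-131110372, plus strand: cgcaaccgctcacctgCGGGGCAGCGCGCA
In the Tcf7l1 stretch lies a summit, 38 bp after the start, of a peak with a fold enrichment of 8.78 (95% interval 5.06 to 14.3) on 14 fragments. The stretches held 8, 10, 6 and 13 cytidines in 30 bases, in the order shown. Over the opening 50 bases, these 4 starts had a median of 28% cytidine, against 30% at the 601 starts of protein-coding genes that a peak covered at least in part and 28% at all 21263 starts. A run of 4 CNN units, that is cytidines spaced by 2 bases of any kind, has been described at ac4C sites and was searched on both strands of the opening 50 bases. It was present on the transcript strand at 0 of these 4 starts, against 35.3% of the 601 starts that a peak covered and 24.7% of all starts. On the opposite strand it was present at 4 of 4, against 41.3 and 34.8%. Over all 38 annotated starts of the Wnt pathway genes the shares were 36.8% on the transcript strand and 47.4% on the opposite strand. The median share of G and C was 73% at the 4 starts, against 68% at the 601 starts and 60% at all starts. A match is only a description of the letters in this window.

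The remaining machinery of the pathway was described by a list of 71 further genes, of which 50 (70.4%) held a peak, against 30.7% of all protein-coding genes. A fold enrichment of at least 10 was reached by 17 of the 71 (23.9%), against 5.84%. All 6 co-receptors and other Wnt receptors held a peak, with Ror2, a receptor for Wnt5a, highest at 13.2 (95% interval 8.55 to 19.5). So did all 10 nuclear partners, with Bcl9l, a coactivator of β-catenin, at 21.9 (17.1 to 27.8), close to Tcf7l1. Of 13 destruction complex and cytoplasmic regulators 11 held a peak, with Nkd1, an inhibitor that binds Dishevelled, at 17.6 (13.3 to 22.8). In the planar cell polarity group 7 of 9 held a peak, with Celsr2 at 19.0 (12.9 to 27.2).

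Of 13 secreted inhibitors 4 held a peak (30.8%), close to the 30.7% of all protein-coding genes. They were Sfrp2 at 11.9 (95% interval 9.25 to 15.0), Frzb at 11.2, Dkk3 at 6.54 and Sfrp4 at 5.17. Dkk1, Dkk2, Dkk4, Sfrp1, Sfrp5, Wif1, Sost, Sostdc1 and Draxin held none. Of 11 genes, namely those for R-spondins, their receptors and the ubiquitin ligases of Frizzled plus Kremen1 and Kremen2, 6 held a peak. Kremen1 was among the 6 and Kremen2 was not. The highest was Znrf3, one of those ligases, at 10.1 (6.90 to 14.4). Of 3 genes for the secretion and release of ligands 1 held peaks (33.3%), also close to that share. It was the acyltransferase gene Porcn, with the highest at 6.84 (3.79 to 11.5), while Wls and Notum held none. Among 6 target genes 5 held a peak, with Msx1 at 13.6 (10.7 to 17.0), Ccnd1 at 8.36, Myc at 8.16, Cd44 at 7.77 and Sp5 at 5.32.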

How the data were processed

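The 2 libraries were grouped by their titles. Per the submitters' processing notes, HISAT2 2.2.1, MACS3 3.0.0a7 and the build mm10 (GRCm38) were used; parameters, and whether the input library served as control, were not given in the sources used here. The authors deposited 1 peak list with a score, a fold enrichment (ratio at the summit), a −log10 p and a −log10 q per peak; the largest q was 0.0499.

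A peak was given to each protein-coding gene of the RefSeq table whose span, introns included, held its summit. For each peak the whole number of fragments was sought that matched fold enrichment and Poisson p-value to a relative miss of 1e-05. It was found for 21192 of 21192 peaks, with a second solution for 0, and the step was tested on simulated data. Python 3.11.15, pandas 2.3.3 and SciPy 1.17.1 were used. With 1 library of each kind no p-values were computed and shares of genes are descriptions. The genes, lists and groups were chosen with earlier results of these data known. Values are given for each gene with a peak and, in the pathway list, for the highest of each role and for roles with 5 or fewer such genes. Alternatives were other thresholds, other rules for giving peaks to genes and other choices of the peak that stands for a gene.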

Additional observations from a re-analysis of the deposited data

How the results depend on the processing

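No paired analysis was possible because each group had 1 library, and no replicate could be left out. The alternatives that used genes of another kind, and those for the number of genes with a fold enrichment of at least 10, were chosen after seeing the data. With a −log10 q of at least 10, 16 genes held 39 peaks, while the share of all protein-coding genes with a peak was 17.6%. The 16 were 8 of 11 inner pathway genes, 5 of 10 receptors and 3 of 19 ligands. The share of ligands with a peak thus no longer stood above that of all protein-coding genes. Apc, Axin1, Dvl2, Fzd6, Fzd10, Wnt2b, Wnt4, Wnt5b, Wnt9a and Wnt16 held no peak at that −log10 q. With peaks at or above the median fold enrichment of the list, 19 genes held 49 peaks, while the share of all protein-coding genes with a peak was 20.4%. The lower numbers of genes and peaks under both settings follow from the smaller list. With each gene given the median of its peaks, the median over the 26 genes was 5.92 in place of 10.07. When the lower bound of the interval had to reach 10, 3 genes did so in place of 14, against 1.99% of all protein-coding genes. The other 44 of 50 group values stayed within 1.5 times the reported count or, for medians, within the counting error of a median peak (64.3 to 149% of the value). Of 139 values of single genes 137 equalled the reported one, which strong peaks do by construction. The others were Wnt11 and Wnt5b, given above. The fewest fragments at a summit of these genes were 7, and sites with fewer fragments may not have entered the list.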
